A study of Mus musculus with 15 samples.

Results

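The 9 genes described here carry out and control the secretion of chloride and fluid by the intestinal epithelium: Gucy2c, Guca2a, Guca2b, Cftr, Slc12a2, Kcnq1, Kcne3, Slc9a3 and Slc26a3. They were picked by symbol for their textbook roles, with earlier results of these data known. Each matched 1 of the 24594 gene rows of a count table of sorted intestinal epithelium. All 9 passed the filter on low counts, as did 13314 genes in all. Their levels were compared between fetal epithelium and adult crypt epithelium of the mouse small intestine.

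The fetal group was 3 libraries of C57Bl/6J proximal intestine at E16.5, untreated, with no genotype given, sorted as EpCAM-positive cells that lacked DAPI, CD31 and CD45. The adult group was 3 libraries of wild-type C57Bl/6J crypts from the first 20% of the small intestine, released with collagenase and sorted for EpCAM and an intermediate CD24 signal, without lineage markers or DAPI. The fetal sort took epithelium of any kind, while the adult sort took a crypt fraction, so age and sort gate changed together. Sex makeup changed with them, since Y-linked genes had counts in every fetal library and in no adult library, and the 3 cannot be told apart. The adult libraries came from a low-input, strand-keeping total RNA kit, and the kit of the fetal libraries is not given in the sources used here. The labels do not say that every library came from a separate animal, so p-values measure the spread between libraries, which may in part be technical. The 9 organoid libraries of the series stand in a table without gene identifiers and were not used here.

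Chloride secretion needs entry of chloride across the basolateral membrane through Slc12a2, exit across the apical membrane through Cftr, and a basolateral potassium current through the Kcnq1 and Kcne3 channel that keeps the cell electrically negative. Guanylin (Guca2a) and uroguanylin (Guca2b) are small peptides released into the lumen. They bind guanylyl cyclase C (Gucy2c) on the apical membrane, and the cyclic GMP it makes opens Cftr and slows sodium uptake by the exchanger Slc9a3. Slc26a3 exchanges luminal chloride for bicarbonate and works with Slc9a3 to absorb salt. In the adult gut the secretory genes are known mainly from crypts and the absorptive exchangers mainly from surface and villus cells.

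Library totals lay between 7888998 and 10538004 counts in fetal libraries and between 5795518 and 6045113 in adult libraries. Epcam, the marker of both sorts, had 834 to 859 CPM (counts relative to the size of the library, after TMM scaling) in fetal libraries and 976 to 1071 CPM in adult libraries, and Ptprc, which encodes CD45, was under 1 CPM in all. The crypt base stem cell genes summed to 161 to 227 CPM in fetal libraries and 7178 to 9707 CPM in adult libraries, and all 6 of them were lower in fetal epithelium. The goblet cell genes summed to 4834 to 7356 CPM in fetal and 17690 to 33220 CPM in adult libraries, and the enterocyte genes to 5533 to 7447 CPM in fetal and 2881 to 3664 CPM in adult libraries. Genes of the exocrine pancreas summed to 729 to 1592 CPM in fetal libraries and 1.73 to 3.90 CPM in adult libraries, and mesenchyme genes to 104 to 141 CPM in fetal and 0.509 to 2.475 CPM in adult libraries. Genes of the pancreatic or bile duct summed to 371.2 to 373.5 CPM in fetal and 204.4 to 216.1 CPM in adult libraries. Of the 6 tested duct genes, 4 were higher in fetal epithelium and 1 was lower. The 4 Y-linked genes Ddx3y, Eif2s3y, Kdm5d and Uty together had 380 to 1036 counts in each fetal library and 0 in each adult library, while Xist, expressed from the inactive X chromosome of females, had 584 to 1111 CPM in fetal and 1191 to 1537 CPM in adult libraries. The part of these differences in the levels below was not tested. In bulk samples, fewer cells of a type and less RNA per cell cannot be told apart.

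In all, 5 of the 9 genes were lower in fetal than in adult crypt epithelium (Kcnq1, Slc12a2, Kcne3, Cftr and Slc9a3), 2 were higher (Slc26a3 and Gucy2c), and neither guanylin gene passed the test. The call required a p under 0.05 in edgeR's quasi-likelihood test after Benjamini-Hochberg adjustment over all 13314 genes. So many genes differed between these sorts that a call was common: 54.9% of all tested genes were called, 29% higher and 25.9% lower in fetal epithelium. The 7 calls among 9 genes stand against that share, and nothing particular to the 9 can be read from the count alone. The median log2 fold change was -0.81 over the 9 genes and 0.01 over all tested genes. The CPM ranges of the groups did not overlap for 5 of the 9 genes, against 62.3% of all tested genes.

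**Figure D1:**
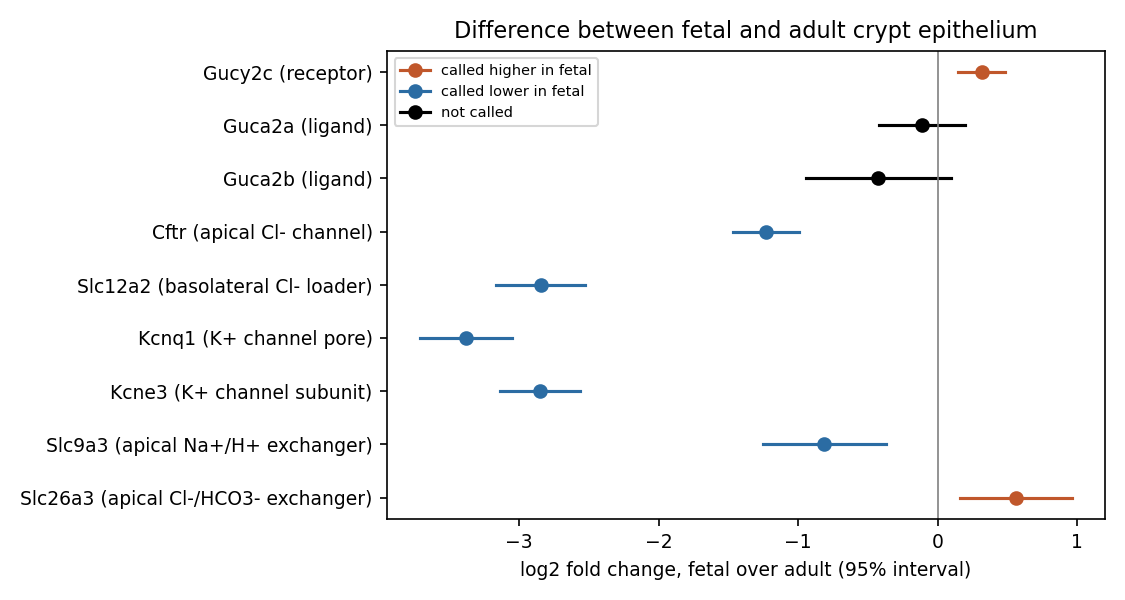
Log2 fold change of each gene, fetal epithelium over adult crypt, with its 95% interval (edgeR quasi-likelihood fit, 3 libraries a group). The 4 genes of the secretory route, from Cftr down to Kcne3, lie between -1.23 and -3.38, while both intervals of the guanylin genes cross 0.

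The 2 ligands of the pathway were the members for which no difference was found. Their active peptides form the carboxyl end of a longer precursor, and the last 45 coding bases of each message are shown because they are where the hormones resemble each other. The bases are from GENCODE M21 transcripts (GRCm38), with Guca2a at chr4:119639228-119639272 on the plus strand and Guca2b at chr4:119656795-119656839 on the minus strand, and capitals mark the 29 of 45 bases (64.4%) that are identical at the same place.
Guca2a: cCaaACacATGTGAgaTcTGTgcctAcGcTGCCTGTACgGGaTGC
Guca2b: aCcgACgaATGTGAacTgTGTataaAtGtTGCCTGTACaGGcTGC
The genes lie 17135 bases apart on chromosome 4, in opposite orientations.

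Guca2a, the guanylin gene, had 34.3, 43.5 and 49.4 CPM in the fetal libraries, against 39.2, 50.6 and 48.1 CPM in the adult libraries. The groups overlapped over most of their range, and replicate 1 was the lowest library in each group. The log2 fold change was -0.11 ± 0.14 (SE), with a 95% interval of -0.42 to 0.20 and an adjusted p of 0.531 in edgeR's quasi-likelihood test. The interval leaves room for a difference of either sign. Guca2b, the uroguanylin gene, was the lowest of the 9 in counts, with 6.86, 8.23 and 10.0 CPM in fetal libraries and 7.955, 14.8 and 11.2 CPM in adult libraries. Its log2 fold change of -0.43 ± 0.24 had an adjusted p of 0.153 in edgeR, and the interval ran from -0.95 to 0.10. The groups overlapped here too, and without adult replicate 1 the log2 fold change was -0.63 with an adjusted p of 0.0385. As deposited, guanylin counts were 5, 5.29 and 4.925 times the uroguanylin counts in fetal libraries and 4.933, 3.43 and 4.28 times in adult libraries, not adjusted for gene length. These ratios overlapped (log2 difference 0.28, exact permutation p = 0.2). With 2 counts added to each gene they did not (0.29, exact permutation p = 0.1, the smallest that 3 against 3 libraries allow), so the separation rested on the added counts.

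The 250 bases before the RefSeq start of each ligand gene (GRCm38.p6) are shown so that the upstream letters of the 2 neighbours can be compared. The Guca2a window is chr4:119637482-119637731 on the plus strand and the Guca2b window chr4:119658946-119659195 on the minus strand, both written 5′ to 3′ with matches to the searched motifs in capitals.
Guca2a: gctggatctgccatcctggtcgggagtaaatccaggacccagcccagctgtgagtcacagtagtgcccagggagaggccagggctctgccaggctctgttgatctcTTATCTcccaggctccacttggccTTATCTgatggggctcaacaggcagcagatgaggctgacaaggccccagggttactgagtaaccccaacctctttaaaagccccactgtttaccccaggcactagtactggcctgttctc
Guca2b: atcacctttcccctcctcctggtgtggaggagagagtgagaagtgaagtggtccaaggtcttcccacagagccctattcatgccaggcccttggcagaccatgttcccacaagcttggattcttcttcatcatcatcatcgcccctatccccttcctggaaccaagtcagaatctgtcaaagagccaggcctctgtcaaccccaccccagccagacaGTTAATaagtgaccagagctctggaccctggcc
A set of 6 motifs of factors known in gut epithelium or in cyclic AMP signalling was searched on both strands, and overlaps between motifs were allowed. The letters searched were AGATAA for the zinc finger factors of the GATA family, GTTAAT for one arm of the HNF1 motif, CAAAGGTCA for HNF4, TTTAT for the CDX homeobox factors, TGACNTCA for CREB and CTTTGAT for TCF/LEF factors. The Guca2a window held 2 GATA-type matches, read as TTATCT and starting 144 and 120 bases before the start site, and the Guca2b window held 1 HNF1-type match starting 33 bases before it. Of 32851 promoter windows of this length, 9.99% hold the GATA letters and 6.43% the HNF1-type letters. A match describes the letters only.

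Gucy2c, the receptor for both peptides, was higher in fetal epithelium by a small and even margin. It had 337, 336 and 326 CPM in fetal libraries, against 276, 252 and 275 CPM in adult libraries. Every fetal library lay above every adult library, and the spread within a group was the smallest of the 9 genes, at 1.78% of the mean in fetal and 4.97% in adult libraries. The log2 fold change was 0.31 ± 0.08 with an adjusted p of 0.004 in edgeR, that is 1.24 times the adult level. With 2 counts added to each gene, receptor counts were 9.77, 7.68 and 6.58 times the guanylin counts in fetal libraries and 6.97, 4.97 and 5.69 times in adult libraries, which overlapped (exact permutation p = 0.2).

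**Figure D2:**
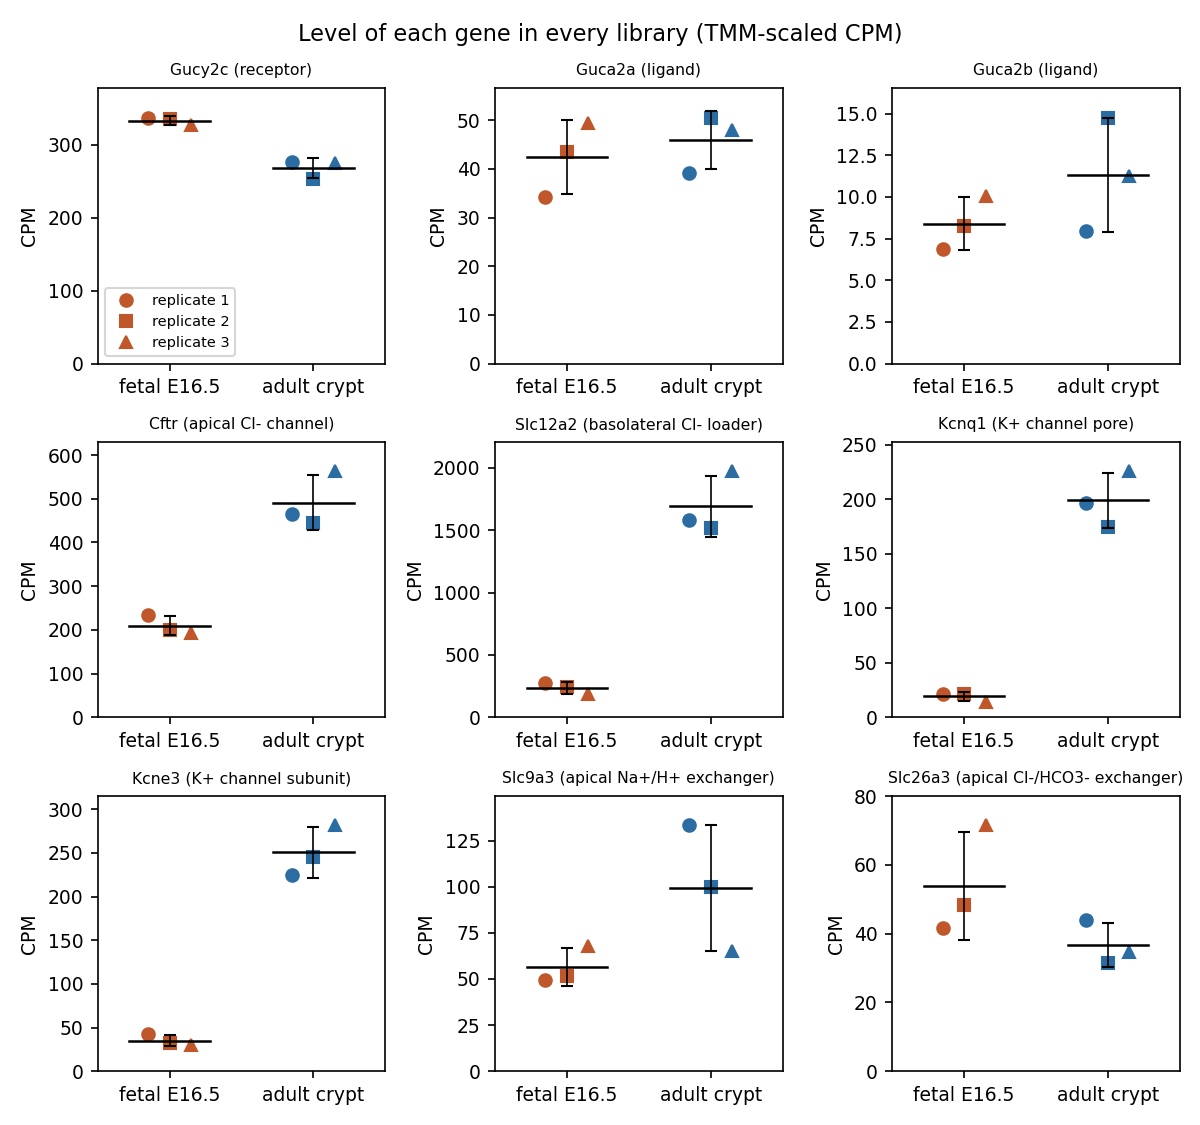
CPM of each gene in every library, fetal E16.5 left of adult crypt, with the linear axis of each panel starting at 0, bars at the group mean and error bars of 1 SD (n = 3). Gucy2c, Cftr, Slc12a2, Kcnq1 and Kcne3 have groups that do not overlap, with fetal Kcnq1 at 14.3 to 21.8 CPM against 175 to 226 CPM in adult crypts.

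Cftr, the apical chloride channel mutated in cystic fibrosis, was expressed in the fetus at a lower level than in adult crypts. It had 235, 200.2 and 194 CPM in fetal libraries, against 464, 445.5 and 563 CPM in adult libraries. All fetal libraries lay below all adult libraries. The log2 fold change was -1.23 ± 0.11, or 2.34-fold lower, with an adjusted p of 7.17e-07 in edgeR. The drop was the smallest among the 4 genes of the secretory route.

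The Cftr promoter is shown for its base composition. It covers chr6:18170437-18170686 on the plus strand (GRCm38.p6, RefSeq), directly before the start of a gene that runs to base 18322768 with 27 exons in its principal transcript.
Cftr: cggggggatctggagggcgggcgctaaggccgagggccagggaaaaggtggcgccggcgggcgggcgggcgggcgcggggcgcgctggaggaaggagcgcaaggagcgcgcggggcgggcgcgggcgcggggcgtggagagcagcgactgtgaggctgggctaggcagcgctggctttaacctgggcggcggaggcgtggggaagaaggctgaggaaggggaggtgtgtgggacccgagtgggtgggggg
Its GC content was 76.4%, with 30 CpG pairs, against medians of 52.4% and 6 pairs over all promoter windows. None of the 6 motifs was found in it, nor in the windows of Slc9a3 and Kcne3.

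Kcnq1, the pore of the basolateral potassium channel, had the largest difference of the 9 genes. It had 21.8, 21.7 and 14.3 CPM in fetal libraries, against 197, 175 and 226 CPM in adult libraries. The groups were far apart, with the lowest adult library several times above the highest fetal one. The fetal level was 10.4-fold lower, a log2 fold change of -3.38 ± 0.15 with an adjusted p of 1.41e-09 in edgeR. An antisense transcript, Kcnq1ot1, shares 121 exon bases (2.96%) with Kcnq1, and whether the counting used strand is not given in the sources used here. Kcnq1ot1, a long non-coding RNA of an imprinted domain, had 432, 476 and 352 CPM in fetal libraries and 205, 129 and 203.5 CPM in adult libraries, so it was higher in every fetal library while Kcnq1 was lower in every one.

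Kcne3, the subunit that holds the Kcnq1 channel open in epithelium, had 42.4, 32.8 and 29.6 CPM in fetal libraries and 225, 245 and 282 CPM in adult libraries. It was 7.20-fold lower in fetal epithelium, with no overlap, a log2 fold change of -2.85 ± 0.13 and an adjusted p of 1.88e-09 in edgeR. Pore and subunit were both lower. With 2 counts added to each gene, Kcne3 counts were 1.93, 1.51 and 2.05 times those of Kcnq1 in fetal libraries. In adult libraries they were 1.15, 1.40 and 1.25 times those of Kcnq1. The fetal and adult ratios did not overlap (log2 difference 0.52, exact permutation p = 0.1, the smallest that 3 against 3 libraries allow).

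Slc12a2, the sodium, potassium and chloride cotransporter that loads the cell with chloride, had 278, 239.5 and 189 CPM in fetal libraries, against 1581, 1521 and 1972 CPM in adult libraries. All fetal libraries lay far below all adult libraries, and the fetal level was 7.19-fold lower. The log2 fold change was -2.85 ± 0.15 with an adjusted p of 4.88e-09 in edgeR. Fetal replicate 3 was the lowest and adult replicate 3 the highest of the 6 libraries.

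Slc9a3, the apical sodium and proton exchanger that absorbs salt, was also lower in fetal epithelium, but its libraries were scattered. It had 49.4, 51.6 and 68.05 CPM in fetal libraries, against 133, 99.9 and 65.0 CPM in adult libraries. Adult replicate 3 fell within the fetal range, so the groups overlapped. The log2 fold change was -0.81 ± 0.20 with an adjusted p of 0.00434 in edgeR, and it was between -1.04 and -0.55 in the 13 alternative fits, all of them called.

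Slc26a3, the chloride and bicarbonate exchanger whose human counterpart is mutated in congenital chloride diarrhoea, was the only transporter of the 9 with a higher call. It had 41.7, 48.3 and 71.5 CPM in fetal libraries, against 43.8, 31.6 and 34.75 CPM in adult libraries. Fetal replicate 3 stood well above the rest, and fetal replicate 1 lay below adult replicate 1, so the groups overlapped. Gastric genes also summed highest in fetal replicate 3 (311 CPM, against 28.8 and 27.9 CPM in fetal replicates 1 and 2). Their part in the Slc26a3 value was not tested. The log2 fold change was 0.56 ± 0.19 with an adjusted p of 0.021 in edgeR. The call was lost without fetal replicate 3 (0.30, adjusted p = 0.116), without adult replicate 2 (0.46, adjusted p = 0.0928) and without adult replicate 3 (0.53, adjusted p = 0.0518).

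The Slc26a3 promoter is printed because it held the most motif matches of the windows read. It covers chr12:31437969-31438218 on the plus strand (GRCm38.p6, RefSeq), with matches in capitals. The start site that follows it is that of a principal GENCODE transcript but lies inside the gene. The gene as annotated begins at base 31390871 in GENCODE and 31433142 in RefSeq.
Slc26a3: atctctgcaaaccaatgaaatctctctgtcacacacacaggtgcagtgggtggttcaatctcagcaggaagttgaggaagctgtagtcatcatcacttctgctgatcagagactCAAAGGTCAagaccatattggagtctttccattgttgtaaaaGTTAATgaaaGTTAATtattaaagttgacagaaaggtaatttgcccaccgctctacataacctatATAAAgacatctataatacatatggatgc
The matches were CAAAGGTCA (HNF4) from 136 bases before the start site, GTTAAT (HNF1-type) from 94 and from 84 bases before it, and ATAAA (CDX, reverse strand) from 29 bases before it. The HNF4 letters occur in 0.426% of all promoter windows and the CDX letters in 37.3%. GC content was 38.8% with 1 CpG pair, the lowest GC among the members' windows. The promoter table had windows for 6 of the 9 members, with none for Gucy2c, Kcnq1 and Slc12a2.

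Ratios between pairs of these genes within a library do not depend on how the libraries were scaled, but they are not adjusted for gene length, so only their difference between groups is read. Each ratio was taken with 2 counts added to both genes. The 7 pairs were compared by exact two-sided permutation tests of the log2 ratio, for which 3 against 3 libraries cannot give a p below 0.1, and 5 of the 7 adjusted values were 0.14. Without the added counts, a choice made after seeing the data, the Guca2a and Guca2b pair overlapped and 4 of the 7 adjusted values were 0.175. Slc12a2 counts were 5.61, 4.62 and 2.77 times Slc9a3 counts in fetal libraries and 11.8, 15.2 and 30.2 times in adult libraries, with no overlap (log2 difference -2.08, exact p = 0.1). Slc26a3 counts were 0.178, 0.242 and 0.37 times Cftr counts in fetal libraries and 0.0951, 0.0715 and 0.0623 times in adult libraries, again with no overlap (log2 difference 1.75, exact p = 0.1). In both pairs the absorptive exchanger stood higher against the secretory transporter in every fetal library than in any adult library. Cftr against Slc9a3 was different: 4.73, 3.86 and 2.84 times in fetal libraries and 3.48, 4.45 and 8.62 times in adult libraries overlapped (exact p = 0.5). The 2 absorptive exchangers had a ratio that did not overlap either, with Slc26a3 at 0.844, 0.935 and 1.05 times Slc9a3 in fetal libraries and 0.331, 0.318 and 0.537 times in adult libraries (log2 difference 1.29, exact p = 0.1).

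**Figure D3:**
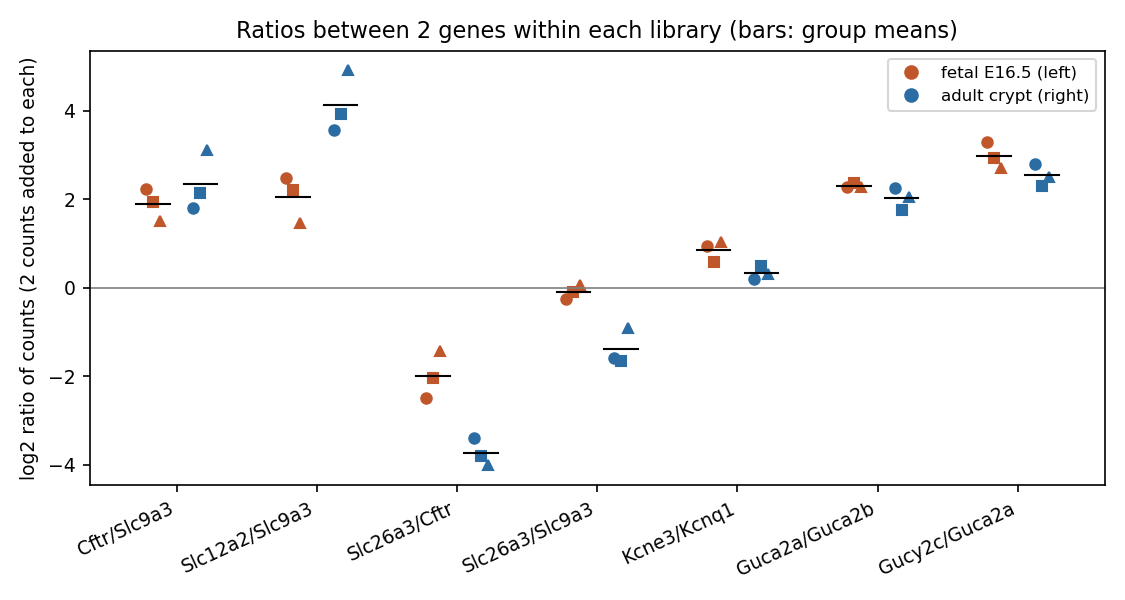
Log2 ratio of the counts of 2 genes in each library, with 2 counts added to each, fetal E16.5 left of adult crypt in each pair, with bars at the group means and symbols for replicates 1 (circle), 2 (square) and 3 (triangle). Slc12a2/Slc9a3 is lower and Slc26a3/Cftr and Slc26a3/Slc9a3 are higher in all 3 fetal libraries, while Cftr/Slc9a3 overlaps.

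Levels were set against each other per kilobase of exon (CPM divided by the joined exon length of the gene), since long genes collect more reads. In fetal epithelium the order began with Gucy2c at 84.1 ± 1.49 and Guca2a at 71.4 ± 12.8 CPM per kilobase (SD, n = 3), whose ranges overlapped. Cftr (27.0), Slc12a2 (21.6) and Kcne3 (19.6) followed as overlapping neighbours in CPM per kilobase, then Slc9a3 (10.2), Guca2b (9.63) and Slc26a3 (8.45), and Kcnq1 came last at 4.71. In adult crypts Slc12a2 (155 ± 22.4) and Kcne3 (141 ± 16.2) came first with overlapping ranges in CPM per kilobase, and Guca2a (77.4), Gucy2c (67.6) and Cftr (63.2) followed with ranges that overlapped from one to the next. Kcnq1 (48.6), Slc9a3 (18.1), Guca2b (13.0) and Slc26a3 (5.77) CPM per kilobase closed the adult order, and of these neighbours Slc9a3 and Guca2b overlapped. The receptor and guanylin thus headed the fetal order, with uroguanylin far below them, and the chloride loader and potassium channel subunit headed the adult one. With the longest transcript as the length, Slc12a2 passed Cftr in the fetal order and Slc26a3 moved above Guca2b and Slc9a3, and Cftr passed Gucy2c in the adult order.

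The libraries of a group differed in the 9 genes and in the summed cell type genes. Fetal replicate 3 was the highest fetal library for Slc9a3, Slc26a3, Guca2a and Guca2b and the lowest for Cftr, Gucy2c, Slc12a2, Kcnq1 and Kcne3. In the same library the summed crypt base stem genes were the lowest of the 3 (161 CPM, against 227 and 198 CPM in fetal replicates 1 and 2) and the summed enterocyte genes the highest (7447 CPM, against 5533 and 7349 CPM). Adult replicate 3 was the highest adult library for Cftr, Slc12a2, Kcnq1 and Kcne3 and the lowest for Slc9a3. There the stem genes were the highest (9707 CPM, against 7178 and 7793 CPM in adult replicates 1 and 2), and the enterocyte genes (2881 CPM, against 3664 and 3483 CPM) and goblet genes (17690 CPM, against 33220 and 31770 CPM) the lowest. Of the 5 marker lists set out here, the other 2 did not follow. Summed enteroendocrine genes were intermediate in replicate 3 of both groups (2728 CPM in fetal and 2063 CPM in adult libraries). Paneth genes were the highest in fetal replicate 3 (43.7 CPM) but intermediate in adult replicate 3 (187 CPM). Outside these lists, gastric genes set fetal replicate 3 apart by a larger factor than stem or enterocyte genes did. They summed to 311 CPM there, against 28.8 and 27.9 CPM in fetal replicates 1 and 2. In adult replicate 3 the gastric sum was intermediate (3.80 CPM). Adult replicate 3 was intermediate for Gucy2c, Guca2a, Guca2b and Slc26a3. These are descriptions of 3 libraries a group, and the part of cell makeup in the group differences was not tested.

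**Figure D4:**
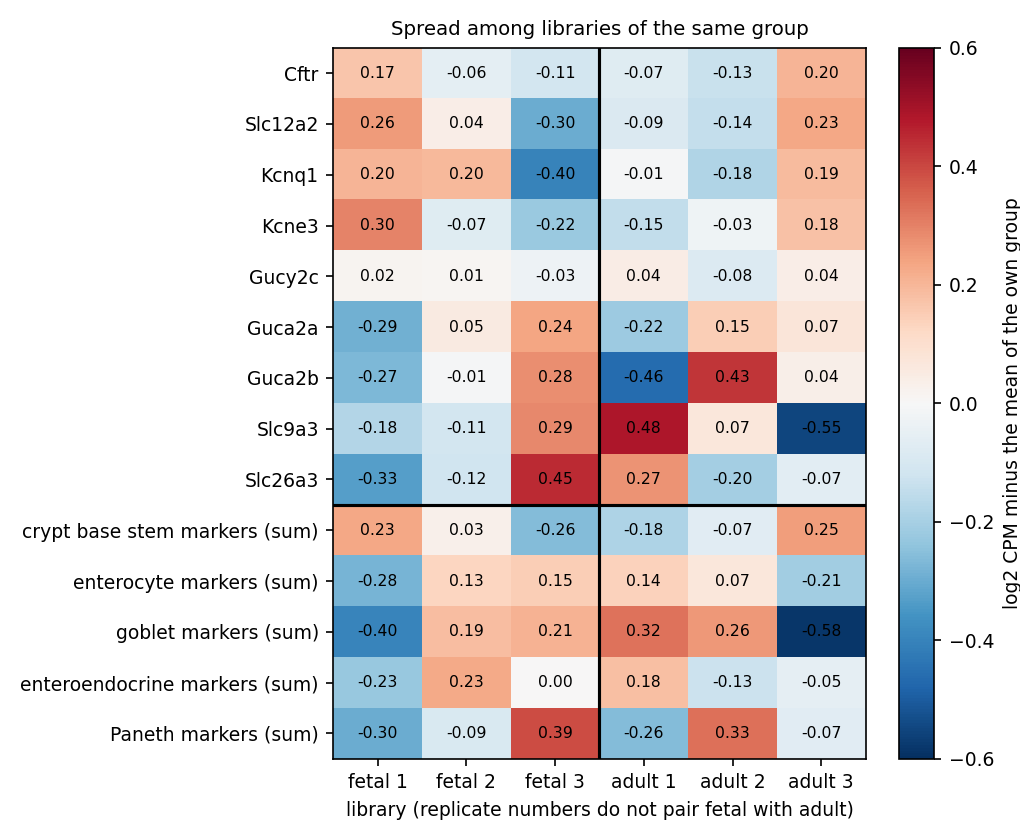
Log2 CPM of each library minus the mean of its own group, for the 9 genes and for the summed markers of 5 cell types, with fetal libraries left of adult libraries. In fetal replicate 3 Kcnq1 is at -0.40 and Slc26a3 at 0.45, and in adult replicate 3 Slc9a3 is at -0.55 and Slc12a2 at 0.23, while the enteroendocrine sum is at 0.00 in fetal replicate 3 and -0.05 in adult replicate 3.

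Other genes of ion and water transport were looked up in 5 lists. Of 69 genes, 60 were tested, and 27 were higher, 22 lower and 11 not called, against the 54.9% called among all genes. The list of the cyclic nucleotide relay mixed genes of cyclic GMP and cyclic AMP signalling. Its counts thus do not describe the steps after Gucy2c alone. Of its 13 tested genes, 8 were higher and 3 lower, and the median log2 fold change was 0.70. Prkg2, the membrane-bound cyclic GMP kinase that phosphorylates Cftr, had 246, 250.3 and 266 CPM in fetal libraries, against 72.8, 74.1 and 79.2 CPM in adult libraries (log2 fold change 1.75 ± 0.08, adjusted p = 2.19e-09 in edgeR). Pde5a, which breaks down cyclic GMP, had 65.9, 51.9 and 56.7 CPM in fetal libraries and 175, 184 and 204 CPM in adult libraries (-1.69 ± 0.10, adjusted p = 2.41e-08 in edgeR). Prkg2 and Pde5a thus differed in opposite directions. Another phosphodiesterase of the list, Pde3a, was higher in fetal epithelium (0.78 ± 0.10, adjusted p = 3.12e-05 in edgeR), and Pde4d was not called. Prkar2b, a regulatory subunit of the cyclic AMP kinase, had 42, 63 and 66 counts in fetal libraries and 3, 1 and 1 in adult libraries, and the adenylyl cyclase Adcy9 was lower in fetal epithelium (-1.06 ± 0.12, adjusted p = 8.53e-06 in edgeR).

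Among 14 apical exchangers, channels and scaffolds, 7 were higher and 5 lower, with a median log2 fold change of 0.47. Slc9a2, the sodium and proton exchanger related to Slc9a3, had 3.49, 3.99 and 7.69 CPM in fetal libraries, against 65.8, 55.0 and 56.0 CPM in adult libraries, 11.2-fold lower. Slc26a6, a chloride, bicarbonate and oxalate exchanger, was 2.79-fold lower (log2 fold change -1.48 ± 0.12, adjusted p = 3.02e-07 in edgeR), the opposite direction to its relative Slc26a3. Slc26a9, a chloride channel and exchanger known from stomach and airway, had 65, 88 and 116 counts in fetal libraries and 0 in each adult library, at least 58.2-fold higher in fetal epithelium when 3 counts over the adult group are taken as the floor. Gastric genes summed to 28.8, 27.9 and 311 CPM in fetal replicates 1, 2 and 3 and 2.65 to 4.92 CPM in adult libraries, and their part in the Slc26a9 value was not tested. Ezr, the ezrin scaffold of the brush border, was higher (log2 fold change 0.69 ± 0.09, adjusted p = 1.77e-05 in edgeR).

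On the basolateral side, 4 of 17 tested genes were higher and 8 lower, with a median of -0.20. Kcnn4, the calcium-activated potassium channel of calcium-driven secretion, had 15, 9 and 12 counts in fetal libraries, against 434, 403 and 450 counts in adult libraries, 54.3-fold lower (log2 fold change -5.76 ± 0.18, adjusted p = 4.19e-11 in edgeR). Kcnn4 and Kcnq1, the main potassium channels of secretion, were thus both lower in the fetal libraries. Stk39, a kinase that activates Slc12a2 (-1.34 ± 0.10, adjusted p = 9.5e-08 in edgeR), the potassium channel Kcnk5 (-1.08 ± 0.13, adjusted p = 1.15e-05) and the sodium bicarbonate cotransporter Slc4a4 (-0.96 ± 0.12, adjusted p = 1.22e-05) were lower as well. Slc12a4, a potassium and chloride cotransporter, had 49 counts over the fetal group and 0 over the adult group, at least 10.6-fold higher.

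Receptors for secretagogues and their opponents were divided, with 5 of 11 higher, 4 lower and a median of 0.15. Vipr1, the receptor for vasoactive intestinal peptide, had 73.6, 59.9 and 65.0 CPM in fetal libraries, against 373, 302 and 334 CPM in adult libraries, 5.09-fold lower. The prostaglandin E2 receptors differed in sign. Ptger4, which raises cyclic AMP, was lower (-1.36 ± 0.12, adjusted p = 6.69e-07 in edgeR). Ptger3, which lowers it, had 39, 49 and 43 counts in fetal libraries and 0, 1 and 4 in adult libraries. Mesenchyme genes summed to 104 to 141 CPM in fetal libraries and 0.509 to 2.475 CPM in adult libraries. Their part in the low counts of Ptger3, Slc12a4 and Prkar2b was not tested. F2rl1, a protease-activated receptor, was higher (0.70 ± 0.09, adjusted p = 2.59e-05 in edgeR). Of 5 tested aquaporins, the membrane channels for water, 3 were higher and 2 lower, with a median of 0.83. The 7 aquaporins of the list summed to 112 to 138 CPM in fetal and 379 to 456 CPM in adult libraries, the opposite direction to the median. Aqp4 had 21.1, 26.3 and 18.8 CPM in fetal libraries and 204, 199 and 214.5 CPM in adult libraries, and Aqp1 had 11.1, 14.1 and 8.905 CPM in fetal libraries and 135, 153 and 197 CPM in adult libraries. Aqp8 had 85, 178 and 152 counts in fetal libraries and 2, 0 and 2 in adult libraries, and Aqp11 was higher by 0.83 ± 0.11 (adjusted p = 3.49e-05 in edgeR). Exocrine pancreas genes summed to 729, 1592 and 730 CPM in fetal replicates 1, 2 and 3, and their part in the Aqp8 value was not tested. Aqp4, Aqp1, Aqp8 and Aqp11 had groups that did not overlap, as did 62.3% of all tested genes. These 4 were named for having the smallest p of their list, which favours such separation.

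**Figure D5:**
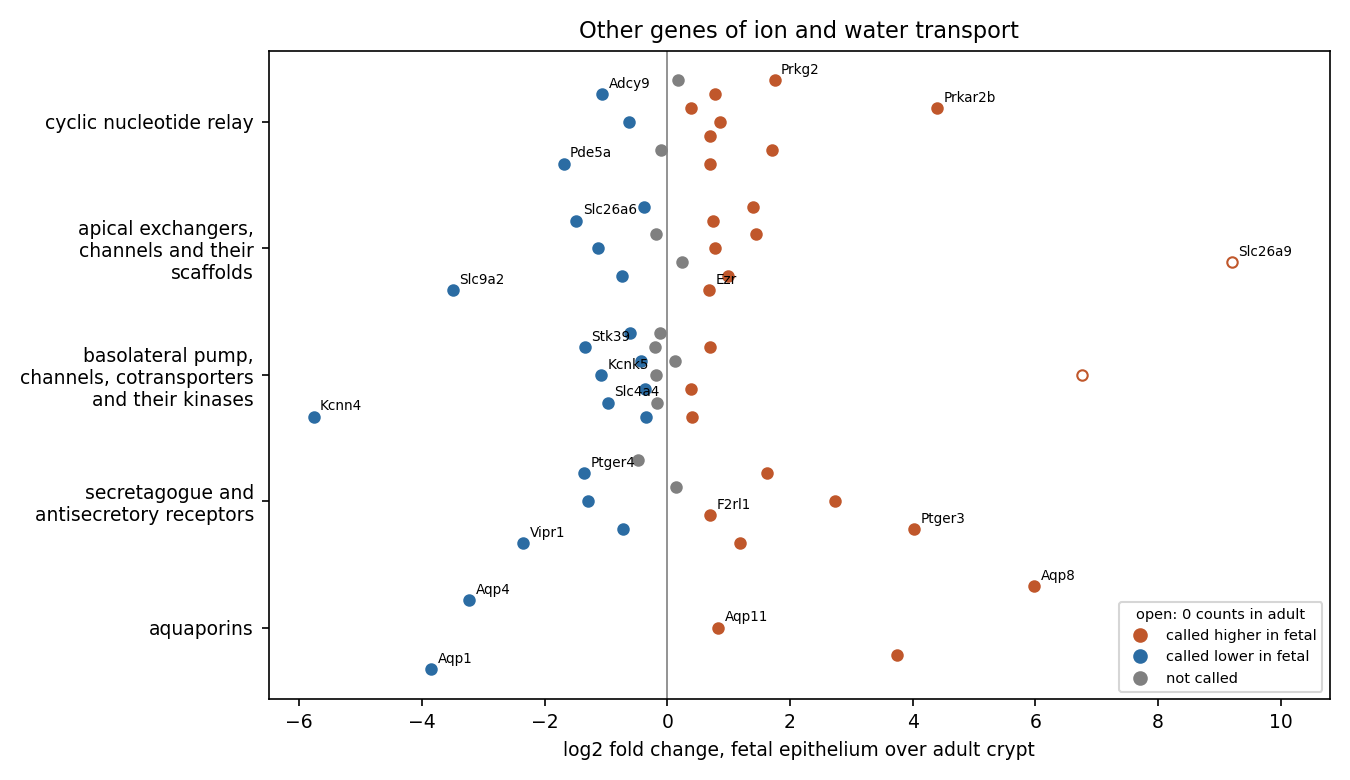
Log2 fold change, fetal epithelium over adult crypt, of the 60 tested genes in 5 lists of ion and water transport. Up to 4 called genes of each list, those with the smallest p, are labelled. Open circles are genes with 0 adult counts, whose fitted value is no measure of size, and the points spread to both sides of 0 in every list, from Kcnn4 at -5.76 to Aqp8 at 5.98 among genes with adult counts.

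For each of the 9 genes, the 2 genes with the most similar profile over the 6 libraries were found among 9672 genes, as the smallest Euclidean distance between log2 CPM values centred on the gene's own mean. For Gucy2c they were Sos1 (distance 0.0242) and Ppp1r13b (0.0654), and for Cftr Rnf43 (0.0982) and Parp9 (0.156). Axin2 was among the nearest genes of both Slc12a2 (0.222, followed by Mcc at 0.283) and Kcne3 (0.293, after Dach1 at 0.284). Kcnq1 lay nearest to Maoa (0.261) and Myb (0.408), Slc9a3 to Traip and Trp53inp2 (0.317 each), and Slc26a3 to Lrrc57 (0.244) and Rab3c (0.297). The ligands were nearest to Plpbp and Gclc (Guca2a, 0.146 and 0.193) and to Snhg12 and Nat9 (Guca2b, 0.176 and 0.267). With 6 libraries in 2 groups, these distances mostly reflect the difference between the groups.

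The genes are spread over 6 chromosomes in GENCODE M21 on GRCm38. Kcnq1 spans chr7:143106362-143427042 and Kcne3 chr7:100176502-100184869 on the plus strand, so pore and subunit share a chromosome but are far apart. Guca2a lies at chr4:119637704-119639471 on the plus strand and Guca2b at chr4:119656607-119658954 on the minus strand. Cftr lies at chr6:18170687-18322768 and Slc12a2 at chr18:57878678-57946821, both on the plus strand. Gucy2c lies at chr6:136697284-136781765 on the minus strand, Slc9a3 at chr13:74121457-74169442 and Slc26a3 at chr12:31390871-31473917, both on the plus strand. Besides Kcnq1, Cftr shares 129 exon bases (1.66%) with an antisense gene and Kcne3 shares 9 (0.506%).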

How the data were processed

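The deposited table holds raw counts per gene: whole numbers with unequal totals, not normalized by the authors. Per the submitters' processing notes, mm10 was the build and edgeR was used. Aligner, annotation and strand setting were not given in the sources used here. Sample titles gave the groups and the replicate numbers. All 6 columns of the table were tested together with edgeR 4.0.16 in R 4.3.3 (TMM, filterByExpr by group, quasi-likelihood test of group means, Benjamini-Hochberg adjustment over all genes), and the fit was tested on simulated data. A standard error is the log2 fold change divided by the square root of F. Rows without a symbol numbered 7, and Rn45s, a ribosomal RNA precursor, took 7.32% to 10.7% of a library. Log2 ratios and distances used a prior count of 2. Floors cover counting error only. The genes, lists and motifs were chosen with earlier results of these data known. The text names the 9 genes and up to 4 called genes with the smallest p of each list. It also names the 2 nearest genes of each member and genes whose exons overlap a member. Pde3a, Pde4d, Slc12a4, Ddx3y, Eif2s3y, Kdm5d, Uty, Xist, Epcam and Ptprc were named after their values were seen. Alternatives were other size factors, DESeq2 1.42.0, other filters, no Rn45s, a replicate block, each library left out, another prior count (and none, added after seeing the data) and another gene length. Promoter letters are from RefSeq.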

Additional observations from a re-analysis of the deposited data

How the results depend on the processing

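All 13 alternative fits called Cftr, Gucy2c, Slc12a2, Slc9a3, Kcnq1 and Kcne3 in the direction given above. Slc26a3 was called in 10 of the 13, and its log2 fold change was between 0.30 and 0.72 with 1 library left out. Guca2b was called in 1 of the 13, with -0.63 to -0.19 when 1 library was left out, and Guca2a in none, with a value of 0.03 without fetal replicate 1. The count of the 9 genes called higher was 1 to 2 with 1 library left out, since Slc26a3 lost its call without fetal replicate 3, adult replicate 2 or adult replicate 3. Over all genes, 6397 (without fetal replicate 2) to 8205 (no filter) were called. Scaling by library size alone moved the median log2 fold change by 0.05. Same-numbered fetal and adult libraries did not deviate together (correlations -0.06, -0.04 and -0.09 over 13314 genes). The labels do not say whether equal numbers share a day, and these correlations cannot settle it. With a replicate block 6886 genes were called, and 7 of the 9 genes, as without it. Without a prior count, an alternative chosen after seeing the data, the ratios of the 7 pairs kept their direction, and the Guca2a and Guca2b ratios of the groups then overlapped. The low counts of Guca2b (197 over the adult group) limit what could be detected for it.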
